A study of Mus musculus with 4 samples.

Results

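Krüppel-like factors are transcription factors that bind, through C-terminal zinc fingers, to GC-rich and CACCC elements. The genes described here are 10 members of the family, Klf2, Klf3, Klf4, Klf5, Klf6, Klf7, Klf9, Klf10, Klf13 and Klf16, chosen by gene symbol among rows of the deposited RNA-seq tables. They were 10 of 22440 rows in the table of bulk and mammosphere libraries and 10 of 11708 rows in the table of control and Cbx8 knockdown libraries. Each symbol had 1 row in each table. The tables held 17 and 11 rows with a numbered Klf symbol, and Klf11, present in both, was not among the 10 members.

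All 4 libraries came from cells labelled MMTV-Myc. The name stands for a Myc transgene driven by the mouse mammary tumour virus promoter, which is active in mammary epithelium. The bulk group (day 0) was cultured with 2% serum and insulin. The mammosphere group (day 20) grew without attachment in serum-free medium with EGF, bFGF and a supplement, and was dissociated and passaged every 4 days. Both are labelled wild type. The control group, also labelled wild type, carried a lentiviral hairpin named shLuc in the genotype label and shScr in the description. The knockdown group carried 1 hairpin against Cbx8, sh68. Both hairpin groups were kept under 2 µg/ml puromycin, and their mode of growth, adherent or in spheres, is not stated in the labels. The header of the deposited table calls the day 0 library D0MS, whereas its title line and the labels call it bulk. Each group was 1 library, so every difference below is between 2 libraries, has no replicate error and no test, and no statement about a condition rests on more than 1 culture.

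Family members are commonly grouped by the partners they recruit. Klf2, Klf4, Klf5, Klf6 and Klf7 belong to the group that binds histone acetyltransferases and mostly activates transcription. Klf9, Klf10, Klf13 and Klf16 bind the Sin3 co-repressor, and Klf3 binds the CtBP co-repressor. Several members are early response genes that serum, shear stress or cell injury induce within a short time. In epithelia, Klf4 is known for cell cycle exit and differentiation and Klf5 for proliferation of basal and crypt cells.

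The expression unit was FPKM (fragments scaled for transcript length and sequencing depth), so levels of different genes within a library can be compared. The 2 tables were made separately, so a gene's values are listed for all 4 libraries but compared only within a table. Log2 changes were taken with 1 FPKM added to each value, which understates the change of low genes. A gene was counted as 2-fold lower or higher when this log2 change reached 1 in size. Of the rows at 1 FPKM or more in either library, 17.2% were at least 2-fold lower and 3.55% at least 2-fold higher in mammospheres than in bulk cells (11630 rows). For knockdown over control these shares were 0.449% and 0.299% (10685 rows). The targeted gene, Cbx8, was at 4.74 FPKM with the control hairpin and 1.23 with the Cbx8 hairpin. Of the epithelial keratins, Krt18 was at 570 FPKM in bulk, 58.2 in mammospheres, 261 with the control hairpin and 256 with the Cbx8 hairpin. Its partner Krt8 was at 334 FPKM in bulk but 5.14 in mammospheres, with 63.2 and 79.3 in the hairpin libraries. The basal keratins Krt14 and Krt5 were at 18.8 and 0.875 FPKM in bulk and 0.0534 and 0.0046 in mammospheres. Krt19 was not lower in mammospheres, at 9.08 FPKM in bulk and 9.65 in mammospheres. It was at 90.1 with the control hairpin and 72.3 with the Cbx8 hairpin. The epithelial adhesion genes Epcam and Cdh1 were at 1.06 FPKM or less in every library.

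Krüppel-like factor transcripts were lower in the mammosphere than in the bulk library for 6 of the 10 members by 2-fold or more, and for none were they 2-fold higher. Of all 11630 rows, 17.2% were at least 2-fold lower and 3.55% higher. Klf4, Klf2 and Klf6, the 3 most abundant members in bulk cells, had log2 changes of −6.71, −5.20 and −3.81. Klf5, Klf10 and Klf9 followed at −2.18, −1.83 and −1.59. Klf7, Klf3, Klf16 and Klf13 lay within 2-fold. The median over the 10 members was −1.71, beside −0.24 over all 11630 rows. Between the Cbx8 knockdown and control libraries no member reached 2-fold, and the median was −0.08 beside −0.006 over 10685 rows. Of those rows 0.449% were at least 2-fold lower and 0.299% higher, so the absence of called members does not set the family apart.

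**Figure D1:**
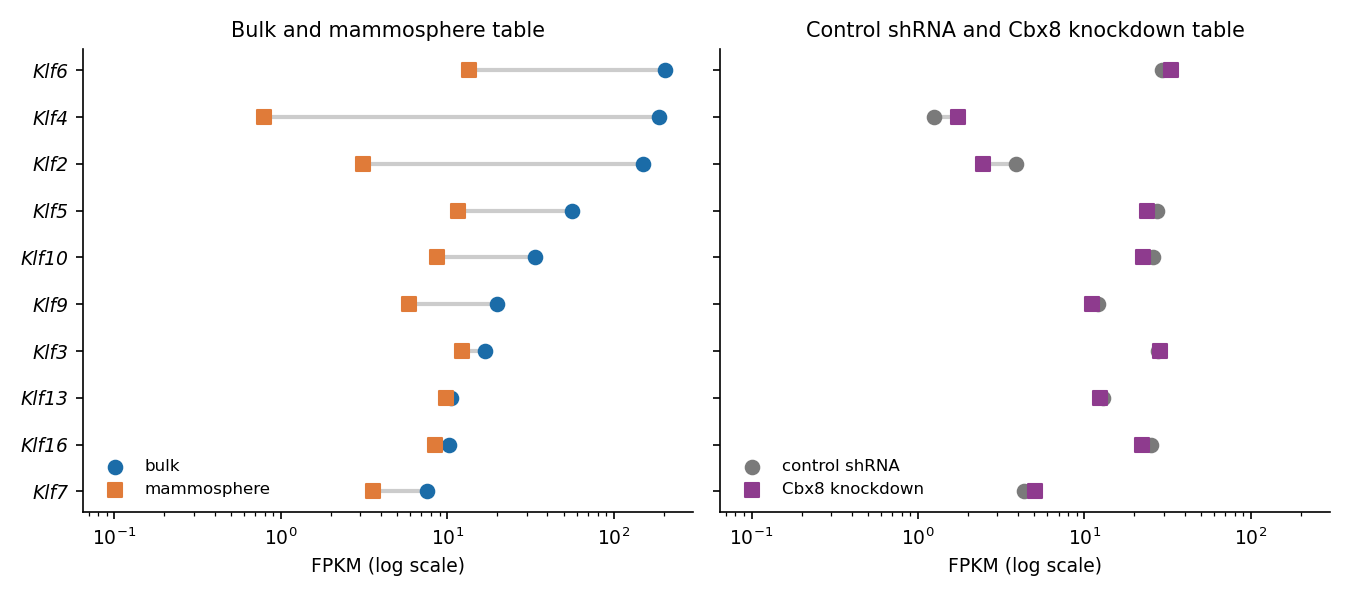
FPKM of each of the 10 genes on a log axis, ordered by bulk level, with 1 library per symbol. In the left panel the bulk values (circles) run from 7.58 to 203 FPKM and the mammosphere values (squares) from 0.794 to 13.5. In the right panel control and knockdown differ by at most 1.57-fold, for Klf2.

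Klf4, one of the factors used to reprogram cells to pluripotency and a regulator of epithelial differentiation, lies at chr4:55540008-55545347 in the mm9 coordinates of the deposited tables. It was at 187 FPKM in the bulk library, 0.794 in the mammosphere library, 1.24 with the control hairpin and 1.75 with the Cbx8 hairpin. The value was high in bulk and low in mammospheres, and both hairpin values were the lowest of the 10 members in their libraries. As a plain ratio Klf4 was 235-fold lower in mammospheres, and its log2 change ranged from −5.05 with 5 FPKM added to −7.88 with none. Only 7 of 11630 rows had a lower log2 change. In the authors' deposited table its q-value is listed as 0. Knockdown over control, the Klf4 log2 change was 0.29, with q = 0.999 in the authors' deposited table.

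Klf2 (chr8:74842960-74845553) is known as a factor of endothelial and T cell quiescence that the ERK5 kinase and MEF2 factors induce. It was at 151 FPKM in bulk, 3.12 in mammospheres, 3.89 with the control hairpin and 2.47 with the Cbx8 hairpin. It was 48.4-fold lower in mammospheres as a plain ratio, and 39 rows had a lower log2 change. In the authors' deposited table its q-value is listed as 0. Its log2 change of −0.49 was the largest in size of any member in the knockdown comparison. That corresponds to a plain ratio of 1.57-fold lower, at q = 0.999 in the authors' deposited table.

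Klf6 (chr13:5860734-5869639), a ubiquitous activator described as a tumour suppressor, was at 203 FPKM in bulk, 13.5 in mammospheres, 29.3 with the control hairpin and 33.0 with the Cbx8 hairpin. It was the most abundant member in each of the 4 libraries, although it was 15.0-fold lower in mammospheres than in bulk cells (q = 1.93e-09 in the authors' deposited table). Its knockdown log2 change was 0.17.

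The 250 bases before the transcription start of these 3 genes are shown because these genes had the largest differences, with Klf13, whose level was nearly the same in bulk and mammospheres, for contrast. The sequences are from RefSeq on build GRCm38.p6, not the mm9 build of the expression tables, and 7 of the 10 members matched an entry. Each reads 5′ to 3′ on the gene's own strand: Klf2 at chr8:72318812-72319061 (+), Klf4 at chr4:55532476-55532725 (−), Klf6 at chr13:5861239-5861488 (+) and Klf13 at chr7:63938916-63939165 (−). Capitals mark every match, on either strand, to the MEF2 motif, the CArG box, the CRE half-site (TGACG), the GC box (GGGCGG), the CACCC box, the CCAAT box or the TATA box (TATAAA). Matches can overlap or adjoin, and then form 1 run of capitals.
Klf2: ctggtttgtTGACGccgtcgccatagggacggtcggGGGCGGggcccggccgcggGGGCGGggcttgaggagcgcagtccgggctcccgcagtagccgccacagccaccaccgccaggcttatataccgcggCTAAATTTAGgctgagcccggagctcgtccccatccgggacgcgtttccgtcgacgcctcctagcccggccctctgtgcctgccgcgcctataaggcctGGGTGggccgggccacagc
Klf4: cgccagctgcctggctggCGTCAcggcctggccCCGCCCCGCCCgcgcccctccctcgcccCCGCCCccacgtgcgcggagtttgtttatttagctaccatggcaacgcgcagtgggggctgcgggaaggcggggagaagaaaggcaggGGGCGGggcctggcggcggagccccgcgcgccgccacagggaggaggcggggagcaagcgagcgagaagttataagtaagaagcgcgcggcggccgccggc
Klf6: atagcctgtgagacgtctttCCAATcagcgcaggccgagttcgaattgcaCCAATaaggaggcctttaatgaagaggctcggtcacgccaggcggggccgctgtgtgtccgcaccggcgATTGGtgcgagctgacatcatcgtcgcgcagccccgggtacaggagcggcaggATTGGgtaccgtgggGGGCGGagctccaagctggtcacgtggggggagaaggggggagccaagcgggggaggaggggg
Klf13: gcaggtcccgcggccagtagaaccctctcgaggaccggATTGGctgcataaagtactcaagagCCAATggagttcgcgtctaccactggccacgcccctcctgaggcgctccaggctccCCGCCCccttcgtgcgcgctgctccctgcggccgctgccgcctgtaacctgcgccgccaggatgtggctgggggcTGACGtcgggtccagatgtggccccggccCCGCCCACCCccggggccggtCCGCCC

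The Klf2 window held the 1 match to the MEF2 motif among the 7 members, 118 to 109 bases before the start. Of 32851 promoter windows of the same length, 2.92% held that motif. The CArG box, the element bound by serum response factor, and the TATA box were matched in none of the 7, and in 1.47% and 12.4% of all windows. GC boxes were present in 6 of the 7 (32.7% of all windows), with 4 in Klf4, 3 in Klf13, 2 in Klf2 and 1 in Klf6. The CACCC box was matched in 5 of 7 (52% of all windows) and was absent from the Klf4 and Klf6 windows. The CRE half-site was matched in Klf2, Klf4, Klf9 and Klf13 (17.8% of all windows), and the CCAAT box in Klf6, Klf9 and Klf13 (33.8% of all windows), with 4 matches in Klf6. The GC content was 71.2% for Klf2, 74% for Klf4, 64.8% for Klf6 and 71.6% for Klf13, beside a median of 52.4% over all windows. These letter matches describe the windows and were not tied to the expression values by a test.

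Klf5 (chr14:99697909-99712628), a promoter of proliferation in basal epithelium, was at 56.2 FPKM in bulk, 11.6 in mammospheres, 27.3 with the control hairpin and 23.9 with the Cbx8 hairpin. The mammosphere value was 4.85-fold lower than the bulk value, with q = 0.000677 in the authors' deposited table. Klf7 (chr1:64082246-64167963), known for axon outgrowth, was the least abundant member in bulk cells, at 7.58 FPKM, and was at 3.56 in mammospheres, 4.32 with the control hairpin and 5.08 with the Cbx8 hairpin. Klf7 was 2.13-fold lower in mammospheres as a plain ratio, but its log2 change with 1 FPKM added was −0.91, short of 2-fold, and the authors did not test its row. Of the 5 members of the acetyltransferase-binding group, 4 were thus at least 2-fold lower, with a group median of −3.81. Between the hairpin libraries 3 of the 5 had positive and 2 negative log2 changes.

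The Sin3-binding members divided into a pair that was lower and a pair that was not. This split holds within the member list only, since Klf11, a Sin3-binding gene outside it, was also lower (log2 change −2.46). Klf10 (chr15:38224167-38230462), a TGF-beta-inducible early gene, was at 33.5 FPKM in bulk, 8.71 in mammospheres, 25.8 with the control hairpin and 22.5 with the Cbx8 hairpin. In the authors' deposited table the mammosphere difference had q = 0.00702. Klf9 (chr19:23215715-23241401), which glucocorticoid and thyroid hormones induce, was at 19.8 FPKM in bulk, 5.88 in mammospheres, 12.1 with the control hairpin and 11.2 with the Cbx8 hairpin, and the authors did not test its mammosphere row. Klf10 and Klf9 were 3.84-fold and 3.36-fold lower in mammospheres as plain ratios.

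Klf13 (chr7:71031236-71083801), known as a regulator of the chemokine gene Ccl5 in T cells, was at 10.6 FPKM in bulk, 9.87 in mammospheres, 12.9 with the control hairpin and 12.5 with the Cbx8 hairpin. Klf16 (chr10:80029865-80040041) was at 10.3 FPKM in bulk, 8.44 in mammospheres, 25.1 with the control hairpin and 22.3 with the Cbx8 hairpin. These values differed by 1.22-fold or less within each table. Klf3 (chr5:65194761-65221368), the CtBP-binding member and a repressor in blood and fat cells, was at 16.8 FPKM in bulk, 12.2 in mammospheres, 27.7 with the control hairpin and 28.5 with the Cbx8 hairpin. The authors did not test the mammosphere rows of these 3 genes.

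Fold changes of the small differences depended on how the bulk and mammosphere libraries were scaled. The median gene expressed in both was at −0.21 on the log2 scale as a plain ratio. All 10 members had negative log2 changes as deposited, 9 did after centring on that median gene, where Klf13 was at 0.10, and 8 did with equal upper quartiles, where Klf13 was at 0.18 and Klf16 at 0.007. Of all 11630 rows, 65.2% were negative as deposited, 53.4% after centring and 48.7% with equal upper quartiles. The same 6 members were at least 2-fold lower under each of these scalings. Centring put the member median at −1.53, and equal upper quartiles put it at −1.45. The authors' deposited table tested 5 members, those highest in bulk cells (33.5 FPKM or more there and 13.5 or less in mammospheres). All 5 were lower at q under 0.05, beside 10.2% of 4045 tested rows lower and 1.73% higher. Because only members with high bulk values were tested, this count is no support for a direction. The other 5 members, Klf3, Klf7, Klf9, Klf13 and Klf16, at 19.8 FPKM or less in bulk cells, were not tested there. In the authors' deposited knockdown table no member was at q under 0.05, beside 0.0769% of 11708 rows lower and 0.128% higher.

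**Figure D2:**
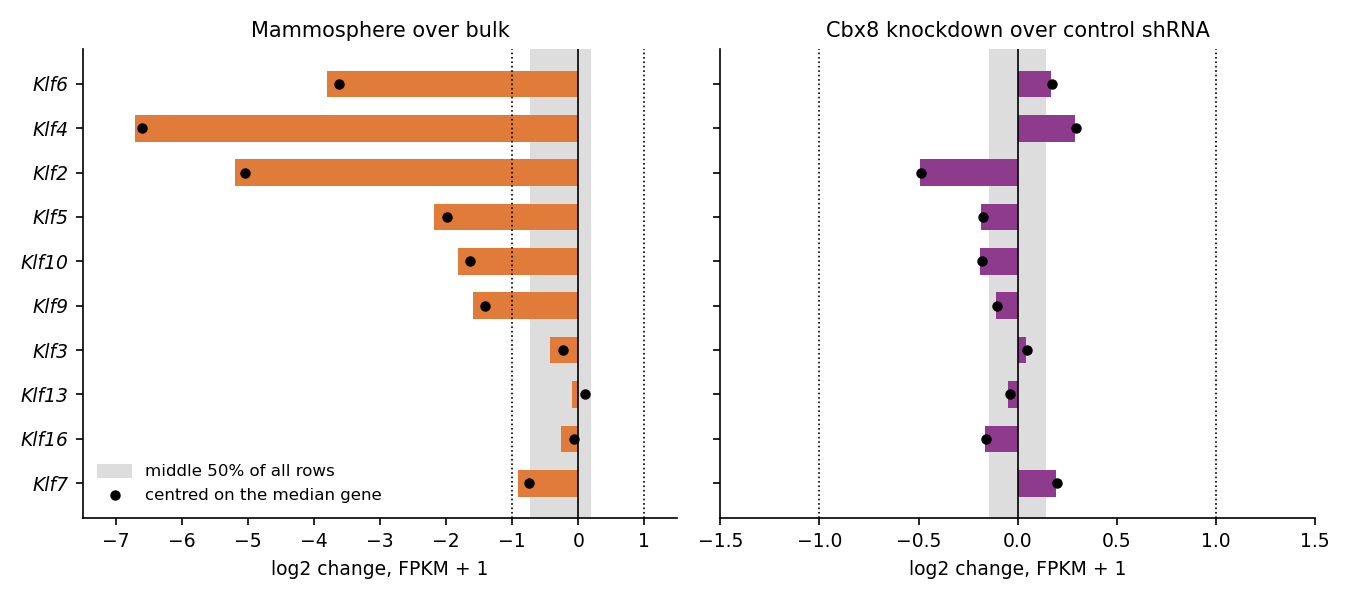
Log2 change with 1 FPKM added for each gene, as bars from 0, for mammosphere over bulk (left) and Cbx8 knockdown over control shRNA (right, on a narrower axis). Grey bands span the middle 50% of all rows, dots are values centred on the median gene, and dotted lines mark 2-fold. The 6 uppermost bars on the left pass the line at −1 and no bar on the right does.

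Set against all rows of the table, the members with the highest bulk levels held lower places in mammospheres than in bulk cells. Because they were picked by bulk level in 1 library, and rows of like bulk level were not compared, these places support no direction. In bulk cells, 2.96% of rows at 1 FPKM or more were above Klf6, 3.16% above Klf4 and 3.96% above Klf2. In mammospheres 43.6% of such rows were above Klf6 and 84.8% above Klf2, and Klf4 was under 1 FPKM. Klf13 and Klf16 stayed near the middle, with 54.8% and 55.5% of rows above them in bulk cells and 54.4% and 59.5% in mammospheres.

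**Figure D3:**
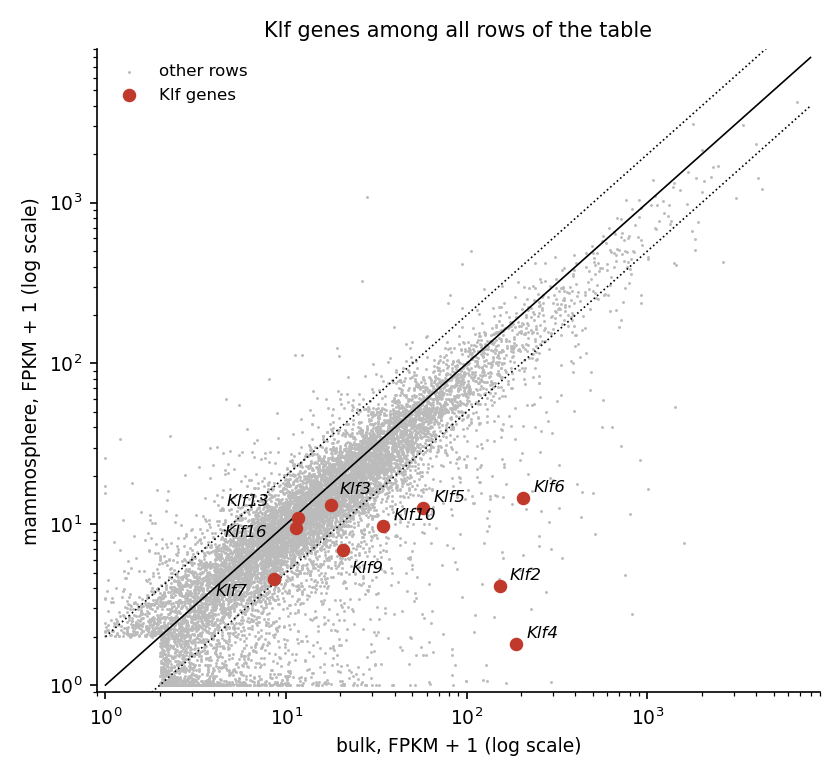
Bulk against mammosphere FPKM, each plus 1 and on log axes, for rows at 1 FPKM or more in either library (grey) and the 10 Klf genes (red). The solid line marks equality and dotted lines 2-fold. Klf4, Klf2 and Klf6 lie far below the 2-fold line, while Klf3, Klf13 and Klf16 lie between the 2-fold lines.

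The make-up of the family differed between the bulk library and the other 3. The 10 members summed to 695 FPKM in bulk and 77.7 in mammospheres, 8.95-fold lower, and to 170 with the control hairpin and 163 with the Cbx8 hairpin. Klf2, Klf4 and Klf6, picked as the 3 highest members in bulk, made up 77.8% of the bulk sum. They made up 22.5%, 20.3% and 22.8% of the mammosphere, control and knockdown sums. That choice by bulk level favours a larger share in bulk. Each library's own 3 highest members made up 77.8% of the bulk sum, 48.0% in mammospheres, 49.7% in control and 52.4% in knockdown. The other 7 members summed to 154.7 FPKM in bulk and 60.3 in mammospheres, 2.57-fold lower. The acetyltransferase-binding group summed to 605 and 32.6 FPKM, 18.5-fold lower, and the Sin3-binding group to 74.1 and 32.9, 2.25-fold lower. In bulk the first of these sums is mostly Klf2, Klf4 and Klf6. The other members of that group, Klf5 and Klf7, were 4.85-fold and 2.13-fold lower as plain ratios. In the control and knockdown libraries these group sums were 66.1 and 66.3 FPKM, and 76.0 and 68.5 FPKM.

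The order of the members by level was Klf6, Klf4, Klf2, Klf5, Klf10, Klf9, Klf3, Klf13, Klf16 and Klf7 in bulk cells. In mammospheres it was Klf6, Klf3, Klf5, Klf13, Klf10, Klf16, Klf9, Klf7, Klf2 and Klf4. The control and knockdown libraries had the same order as each other, Klf6, Klf3, Klf5, Klf10, Klf16, Klf13, Klf9, Klf7, Klf2 and Klf4. The 3 highest and the 4 lowest members were thus the same genes in the mammosphere, control and knockdown libraries. Neighbours in these orders, such as Klf13 and Klf16 at 10.6 and 10.3 FPKM in bulk cells, cannot be ranked with confidence, since no replicate gives their spread. Only orders and shares within a library are set side by side here.

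**Figure D4:**
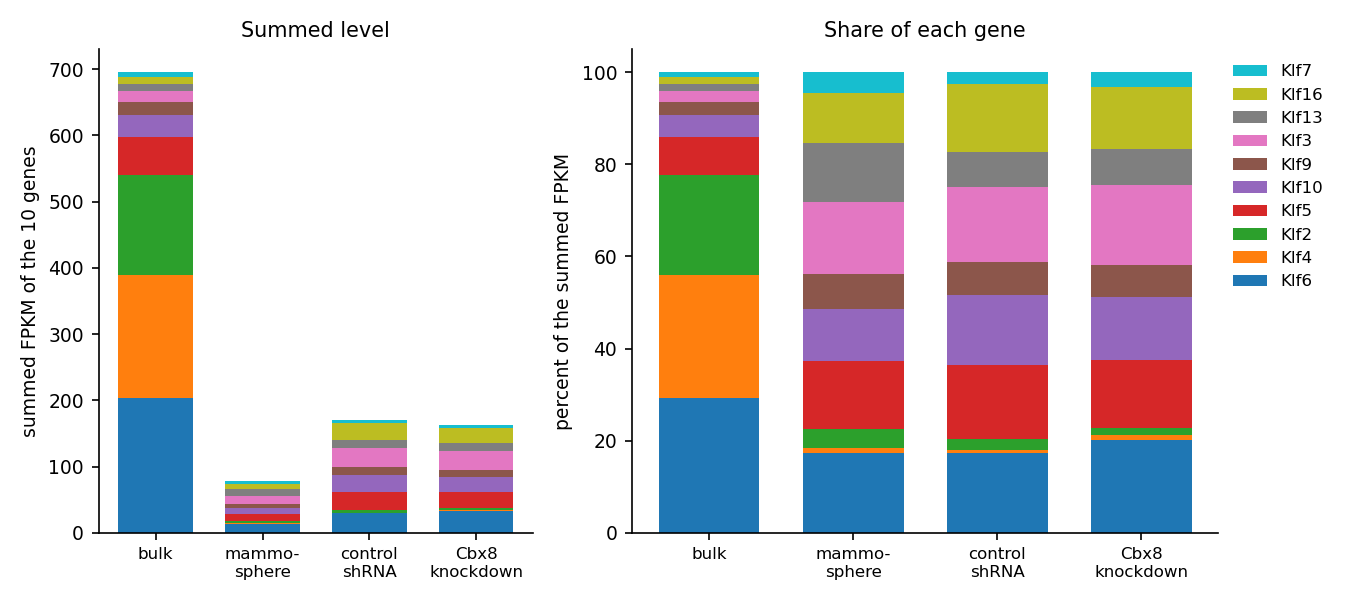
Summed FPKM of the 10 genes (left, bars from 0) and each gene's percent of that sum (right) in the 4 libraries. Klf6, Klf4 and Klf2, the 3 highest in bulk, are at the base of each bar. They make up 77.8% of the bulk sum and 20.3% to 22.8% of the other sums. The tables were made separately, so heights are comparable only within bulk and mammosphere and within control and knockdown.

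The 10 members lie on 10 different chromosomes. Their loci run from 2.59 kb (Klf2) to 85.7 kb (Klf7), and length was examined after the expression values were seen. Of the 5 shortest loci, those of Klf2, Klf4, Klf10, Klf6 and Klf16 (up to 10.2 kb), 4 were at least 2-fold lower in mammospheres, with a median log2 change of −3.81. Of the 5 longest (Klf5, Klf9, Klf3, Klf13 and Klf7), 2 were, with a median of −0.91. Across the 10 genes, which share the same 2 libraries and are not replicates, locus length and log2 change had a Spearman rho of 0.77. Across 8913 rows at 5 FPKM or more in either library rho was 0.07. Knockdown over control, rho was 0.36 over the 10 members and −0.02 over 8789 rows.

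**Figure D5:**
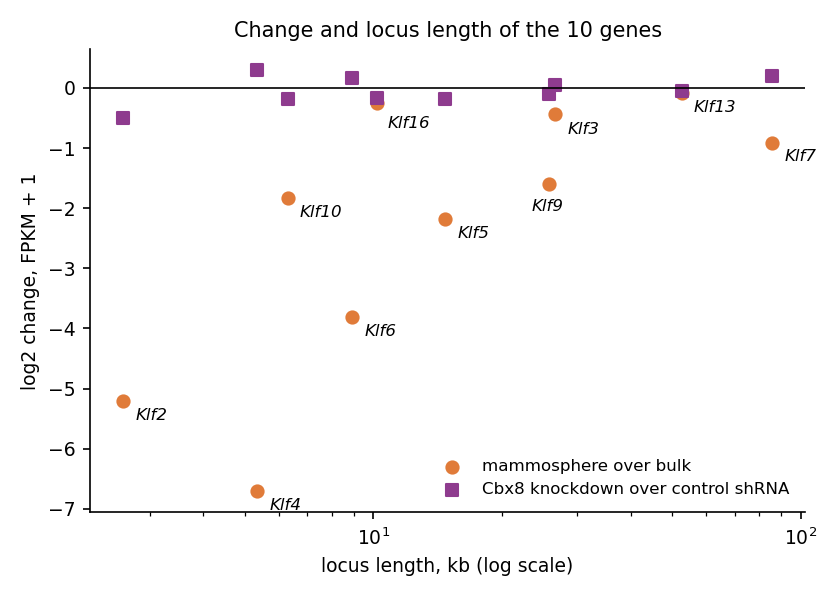
Log2 change with 1 FPKM added against locus length in kb on a log axis for the 10 genes, for mammosphere over bulk (circles, named) and knockdown over control (squares). Klf2, Klf4 and Klf6, at 2.59 to 8.91 kb, have the lowest circles, Klf16 at 10.2 kb is at −0.26, and all squares lie between −0.49 and 0.29.

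Among the 7 family genes outside the members, Klf11, a Sin3-binding relative of Klf10, was the only one at 1 FPKM or more. It was at 13.7 FPKM in bulk, 1.66 in mammospheres (log2 change −2.46, a row the authors did not test), 4.07 with the control hairpin and 2.99 with the Cbx8 hairpin. Klf1, Klf8, Klf12 and Klf15 were at 0.0903 FPKM or less in both libraries of the bulk and mammosphere table, Klf14 and Klf17 were listed at 0 there, and none of the 6 has a row in the knockdown table. The related Sp factors bind the same GC boxes. Sp1 was at 25.6 FPKM in bulk, 22.5 in mammospheres, 34.6 with the control hairpin and 30.5 with the Cbx8 hairpin, and Sp3 at 24.4, 19.9, 54.2 and 50.2 FPKM in the same order. Sp2 was at 9.14, 6.70, 11.0 and 9.94 FPKM and Sp4 at 1.47, 1.04, 1.09 and 1.43. None of these 4 measured Sp genes reached 2-fold in either comparison.

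Transcripts of the co-factors that Krüppel-like factors recruit were within 2-fold in each pair of libraries, as most rows were. Of all rows, 17.2% were at least 2-fold lower and 3.55% higher in mammospheres, and 0.449% and 0.299% in the knockdown. None of 9 co-repressor genes (CtBP, Sin3 and its histone deacetylase partners) reached 2-fold in either comparison, with medians of −0.13 in mammospheres and −0.08 in the knockdown. Sin3a, the scaffold of the Sin3 complex, was at 18.0 FPKM in bulk cells against 28.9 in mammospheres. The transcript of its partner Sap30 was at 15.1 and 9.10 FPKM, and that of Ctbp1 at 66.9 and 50.4. None of 4 acetyltransferase genes reached 2-fold either (medians −0.46 and −0.19). In bulk and mammospheres Crebbp was at 13.6 and 7.12 FPKM, Kat2b at 11.6 and 7.01 and Ep300 at 21.1 and 19.2. Of 7 ubiquitin ligase genes linked to turnover of these factors none reached 2-fold with 1 FPKM added (medians −0.29 and −0.005). Wwp1, a ligase for Klf2 and Klf5, was at 11.9 FPKM in bulk cells against 5.74 in mammospheres, 2.07-fold lower as a plain ratio.

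Genes of the pathways that induce family members were examined next. For comparison, 17.2% of all 11630 rows were at least 2-fold lower in mammospheres as deposited. Of 6 genes for serum response factor and its co-factors, 2 were at least 2-fold lower in mammospheres (median −0.12), and 1, Srf, was under either rescaling. Srf itself was at 57.5 FPKM in bulk, 16.6 in mammospheres, 26.1 with the control hairpin and 30.9 with the Cbx8 hairpin, with q = 0.0115 in the authors' deposited table for mammospheres against bulk. Its partner Elk4 was at 9.10 and 3.75 FPKM in bulk and mammospheres, and Mkl1 at 16.2 and 11.6. Of 7 measured genes of the ERK5 and MEF2 route to Klf2, only Mef2c, at 1.49 and 0.0233 FPKM, was at least 2-fold lower with 1 FPKM added (median −0.39). Mapk7, which encodes ERK5, was at 8.44 and 11.9 FPKM, and Map3k2, which lies upstream of it, at 9.82 and 4.52, which is 2.17-fold lower as a plain ratio. Mef2a was at 24.8 and 13.98 FPKM. Mef2c is named outside the naming rule, after its values were seen, because it is the only gene counted.

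All 9 TGF-beta and SMAD genes had negative log2 changes in mammospheres as deposited (median −0.92), 8 did under either rescaling, and 3 were at least 2-fold lower under each. Of all 11630 rows, 65.2% were negative as deposited, 53.4% after centring and 48.7% with equal upper quartiles. As deposited 17.2% were at least 2-fold lower. Smad7, the inhibitory SMAD, was at 26.9 FPKM in bulk, 0.505 in mammospheres, 8.81 with the control hairpin and 10.4 with the Cbx8 hairpin (q = 3.14e-12 for mammospheres in the authors' deposited table). The receptor gene Tgfbr1 was at 19.0 and 7.31 FPKM in bulk and mammospheres, and the ligand gene Tgfb3 at 25.9 and 12.5, which is 2.07-fold lower as a plain ratio though not among the 3 counted. Of 6 measured glucocorticoid receptor and response genes 4 were at least 2-fold lower, also under either rescaling (median −1.67 as deposited). All 6 had negative log2 changes as deposited, but only those 4 did under either rescaling. The kinase Sgk1 was at 249 and 7.42 FPKM, the EGF receptor inhibitor Errfi1 at 142 and 14.2, and Tsc22d3 at 27.8 and 7.93. Those not counted were Fkbp5, at 39.9 and 37.7 FPKM, and the receptor gene Nr3c1, at 18.5 and 16.2. In the knockdown comparison none of the serum response, ERK5, TGF-beta or glucocorticoid genes reached 2-fold, and the 4 medians lay between −0.07 and 0.03. Of all 10685 rows there, 0.449% were at least 2-fold lower and 0.299% higher.

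Genes reported elsewhere as targets of Krüppel-like factors did not share 1 direction. Of 14 measured, 7 were at least 2-fold lower (6 under either rescaling) and 2 at least 2-fold higher in mammospheres (median −0.84). The shares over all rows were 17.2% lower and 3.55% higher. Beside Smad7, the lower ones included the growth factor gene Pdgfa, at 30.2 and 10.3 FPKM, and the repressor gene Bcl6, at 16.8 and 4.33. The 2 higher ones, named after their values were seen, were Ccnb1 (cyclin B1, 32.6 and 83.0 FPKM) and Txnip (a thioredoxin inhibitor, 37.4 and 77.8 FPKM). Knockdown over control, none of 14 reached 2-fold with 1 FPKM added (median 0.05). As a plain ratio the anticoagulant receptor gene Thbd did, at 0.742 and 2.41 FPKM, and it is named after its values were seen.

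Klf2 and Klf4 are also expressed in endothelium and leukocytes, and markers of these cells and of fibroblasts were compared in the same libraries. Of 15 leukocyte markers 14 were at least 2-fold lower in mammospheres (13 under either rescaling) and 1, Itgb2, higher. The shares over all rows were 17.2% lower and 3.55% higher. Sums are over every listed marker with a row, low ones included. The leukocyte markers summed to 417 FPKM in bulk and 61.7 in mammospheres, where Itgb2 alone was at 60.3, and Tyrobp, Fcer1g, Emr1, Cd3e and Cd3g were listed at 0. Cd74, whose row also names a microRNA, was at 164 and 0.0353 FPKM. Lyz2 was at 122 and 0.0737 FPKM. Of 10 fibroblast markers 9 were at least 2-fold lower, with sums of 523 and 4.31 FPKM, Col1a1 at 97.7 and 0.0589 FPKM, and Lum and Postn listed at 0 in mammospheres. Of 8 endothelial markers 3 were measured and 2 of these were lower, while the other one, Egfl7, was short of 2-fold higher as deposited and passed it under either rescaling. The 8 summed to 17.5 and 19.5 FPKM, of which Egfl7 was 10.2 and 19.3, and Tek, Cldn5 and Emcn were listed at 0 in mammospheres. Of 8 epithelial markers 6 were measured and 4 of these were lower, and the 8 summed to 936 and 73.1 FPKM. The part of these other cell types in the lower Klf levels was not tested, and in bulk RNA fewer cells of a type and less RNA per cell cannot be told apart.

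Of the leukocyte markers, 3 had a row in the knockdown table, and 1 of them, Itgb2, was at 1 FPKM or more (66.3 and 69.7 FPKM in control and knockdown). Of the fibroblast markers 5 had a row, with sums of 63.3 and 76.4 FPKM, of which Fbln2 was 56.7 and 73.4, and Col1a1 was at 0.88 and 0.441 FPKM. None of the leukocyte, endothelial and fibroblast markers measured there reached 2-fold with 1 FPKM added. With equal upper quartiles 1 did, Col3a1, at 2.33 and 0.675 FPKM, and as plain ratios Col3a1 and Mmp2 (2.81 and 1.32 FPKM) were lower by more than 2-fold. Of the 4 measured epithelial markers 1, the basal keratin Krt14, was higher in the knockdown library, at 1.09 and 10.5 FPKM.

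For each member that was at least 2-fold lower in mammospheres, the 3 genes with the nearest pair of log2 changes (mammosphere over bulk and knockdown over control) were sought among 7495 genes at 5 FPKM or more in each table. The measure rests on 2 differences from 4 libraries. Nearest to Klf6 were Hbegf, Skil and Bag3, at distances of 0.018, 0.080 and 0.109 log2 units. Hbegf was at 229 FPKM in bulk, 15.2 in mammospheres, 36.0 with the control hairpin and 40.6 with the Cbx8 hairpin. Nearest to Klf2 were Arc, Egr1 and Id3 (0.070, 0.284 and 0.465). Arc was at 197, 4.205, 6.75 and 4.30 FPKM in the same order, and Egr1 at 431, 10.04, 10.4 and 8.75. Nearest to Klf4 were Thbs1, Anxa8 and Dnajb1, which lay farther away at 0.521, 0.616 and 0.783. Few genes had so large a difference, and Thbs1 was at 225, 1.98, 19.8 and 29.2 FPKM. The nearest genes were Btg1, Hcfc1r1 and Zfand5 for Klf5, Vwa5a, Dedd2 and Taf1d for Klf10, and Rc3h1, Jak1 and Spty2d1 for Klf9, all within 0.083.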

How the data were processed

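Polyadenylated RNA of 4 libraries was sequenced as single-end reads of 100 nt, per the labels' protocols. The authors deposited 2 Cuffdiff tables with FPKM per gene and their own q-value. The submitters' processing notes name TopHat 1.4.0 with Cufflinks 1.3.0, FastQC 0.10.0 and a Cuffdiff listed as 0.0.7, on build mm9, without settings or the scaling between libraries. The files hold no counts, no whole-read steps were seen among low values, and depth is unknown, so no interval or detection limit was computed.

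Log2 changes were computed within a table after adding 1 FPKM. Counts took rows at 1 FPKM or more in either library, whatever their status in the authors' table. Where several rows hold a symbol, that of highest mean FPKM was used. Members and 14 gene lists were chosen with earlier results of these data known. Named genes were all members, every other Klf and Sp gene at 1 FPKM or more, up to 3 genes per list with the largest change at 5 FPKM or more, and the nearest genes by Euclidean distance, leaving out predicted and small RNA models. Thbd, Krt19, Fkbp5, Nr3c1 and markers at or near 0, dominating a sum or changing call under another scale were named after their values were seen. The counting step was tested on simulated data. With 1 library per group no test was run, and the authors' q is quoted as deposited. Alternatives were 11 planned settings and 1 added after seeing the data, the plain ratio. Python 3.11.15, pandas 2.3.3, NumPy 2.4.6, SciPy 1.17.1 and matplotlib 3.10.9 were used.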

Additional observations from a re-analysis of the deposited data

How the results depend on the processing

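No paired analysis was possible because each group is 1 library and the labels give no replicate numbers. The count of members at least 2-fold lower in mammospheres was 6, at a setting where 17.2% of all rows were. It was 7 with 0.1 FPKM added, with a 1.5-fold limit and with the plain ratio (chosen after seeing the data), where Klf7 was added each time. It was 5 with tested rows only and by the authors' q, both without Klf9, and 4 at a 4-fold limit (Klf2, Klf4, Klf5 and Klf6). It was 6 with 5 FPKM added, under both rescalings, with summed rows, without an FPKM minimum and with a minimum of 5 FPKM. Apart from the authors' q (10.2% of tested rows lower), the share over all rows was not computed at these alternatives. The counts therefore show how the members' calls move, not whether they move less than those of other genes. In the knockdown comparison the count was 0 under the main setting and all 12 alternatives. There the minimum of 5 FPKM left 8 members to count, without Klf2 and Klf4. Of 173 recomputed changes of single members, 167 kept their call and moved by less than 1.5-fold, 4 moved by more (Klf4 with 0.1, 5 or 0 FPKM added, Klf2 with 5) and 2 passed 2-fold (Klf7 with 0.1 or 0 FPKM added). No change of a counted member reversed. These 6 were all in the mammosphere comparison. Without replicates or counts, neither biological spread nor counting error is known for any value.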
